A study of Mus musculus with 6 samples.

Results

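The genes described here encode the proteasome, the protease complex that degrades ubiquitin-tagged proteins, together with its assembly chaperones, activators and inhibitor. They were chosen by name, as the array genes whose symbol begins with Psma to Psmg followed by a digit, and each was read by the feature with the highest mean over the 6 arrays. The rule found 50 of the 19938 genes tested. Of these, 48 belong to the proteasome, and Psmc3ip and Psme3ip1 carry the name because their products bind a subunit. An entry shared between Psme2 and Psme2b was left out, and Psme2b was not analysed here. The arrays measured RNA from 3 samples of Axin2+/GFP+ cells and 3 samples of Axin2-/GFP- cells, both sorted from the suture mesenchyme of the mouse calvarium, the tissue between the flat bones of the skull. All mice were of a mixed background (C57BL/6J, CD-1 and B6CBAF2) and carried both Axin2rtTA, in which Axin2 control drives the activator rtTA, and TRE-H2BGFP, a histone-GFP fusion that rtTA switches on when doxycycline is present. Doxycycline was given from postnatal day 25, and cells were taken at postnatal day 28, so that both populations came from treated transgenic mice and were separated on GFP intensity alone. Each sample pooled the cells of 6 to 8 mice, freed with 0.2% collagenase.

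The proteasome is built from a barrel and caps. The 20S core particle stacks rings of alpha subunits, which form the gate, and rings of beta subunits, of which Psmb5, Psmb6 and Psmb7 carry the active sites. The 19S regulatory particle sits on the gate, recognises ubiquitin chains, removes them and unfolds the substrate with a ring of ATPases. In cells of the immune system, and elsewhere under interferon-gamma, Psmb8, Psmb9 and Psmb10 take the places of Psmb5, Psmb6 and Psmb7 to form the immunoproteasome, which shapes the peptides shown on MHC class I. Other caps open the core without ubiquitin: PA28 alpha and beta (Psme1 and Psme2), PA28 gamma (Psme3) and PA200 (Psme4). When proteasome activity is short, the transcription factor NRF1 (Nfe2l1) raises most subunit genes together through antioxidant response elements in their promoters.

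Promoter windows were read for the genes because these response elements lie there. The RefSeq table of promoters (GRCm38.p6), with 250 bases before and 50 after the start of each transcript, held a window for 40 of the 48 proteasome genes and for 12 of the 16 that passed the test below. The first 3 sequences are of genes that were lower in Axin2+/GFP+ cells and whose window holds the core of the antioxidant response element, TGACNNNGC on either strand, in capitals. Psma1 is shown as the 20S gene whose call was least dependent on the processing, with no such core in its window. The window of the immunoproteasome gene Psmb8 has in capitals a match to the interferon-gamma activated site, TTCNNNGAA. All are written 5′ to 3′ on the strand of the gene.
Psme4, chr11:30771525-30771824, plus strand: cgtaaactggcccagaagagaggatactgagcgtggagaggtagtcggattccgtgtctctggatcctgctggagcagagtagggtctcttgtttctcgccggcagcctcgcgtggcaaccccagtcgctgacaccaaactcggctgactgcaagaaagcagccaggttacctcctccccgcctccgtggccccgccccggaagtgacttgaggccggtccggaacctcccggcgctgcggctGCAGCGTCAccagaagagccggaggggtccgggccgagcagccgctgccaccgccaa
Psmd12, chr11:107479278-107479577, plus strand: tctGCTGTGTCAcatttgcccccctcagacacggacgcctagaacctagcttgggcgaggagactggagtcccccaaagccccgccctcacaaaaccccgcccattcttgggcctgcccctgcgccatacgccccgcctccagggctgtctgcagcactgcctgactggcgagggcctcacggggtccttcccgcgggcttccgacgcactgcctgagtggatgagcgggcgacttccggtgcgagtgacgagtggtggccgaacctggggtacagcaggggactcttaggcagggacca
Psmc6, chr14:45329574-45329873, plus strand: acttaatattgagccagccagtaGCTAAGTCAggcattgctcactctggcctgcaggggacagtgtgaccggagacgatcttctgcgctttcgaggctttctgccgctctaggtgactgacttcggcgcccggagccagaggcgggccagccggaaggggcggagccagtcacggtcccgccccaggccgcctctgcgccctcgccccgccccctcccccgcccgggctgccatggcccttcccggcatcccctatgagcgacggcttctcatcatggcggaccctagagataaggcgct
Psma1, chr7:114276067-114276366, minus strand: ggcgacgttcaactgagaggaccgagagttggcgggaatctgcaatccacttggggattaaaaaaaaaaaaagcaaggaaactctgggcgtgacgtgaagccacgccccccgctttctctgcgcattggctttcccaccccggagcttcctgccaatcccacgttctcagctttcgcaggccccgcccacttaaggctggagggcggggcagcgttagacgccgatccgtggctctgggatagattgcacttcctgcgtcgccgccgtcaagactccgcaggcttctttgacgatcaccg
Psmb8, chr17:34197945-34198244, plus strand: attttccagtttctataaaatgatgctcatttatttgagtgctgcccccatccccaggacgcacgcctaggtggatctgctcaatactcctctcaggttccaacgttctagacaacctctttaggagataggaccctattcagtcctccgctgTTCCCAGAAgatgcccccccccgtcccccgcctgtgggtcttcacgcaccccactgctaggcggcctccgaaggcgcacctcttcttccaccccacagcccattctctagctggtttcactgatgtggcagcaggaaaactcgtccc

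The values are deposited log2 array values, 1 array per sample, and were tested with limma and Benjamini-Hochberg adjustment over all 19938 genes at a threshold of 0.05. The number of arrays limits the precision. The labels call the samples of a population biological replicates. The upper quartile of the features was 3.72 to 3.76 on the Axin2+/GFP+ arrays and 3.97 to 4.0 on the Axin2-/GFP- arrays, so that the arrays did not share 1 distribution. Axin2 itself had a mean log2 value of 2.83 in the sorted positive cells and 2.28 in the negative cells. The change of 0.55 did not pass the test (adjusted p = 0.0802). Its samples read 2.89, 2.54 and 3.07 in Axin2+/GFP+ cells and 2.18, 2.27 and 2.38 in Axin2-/GFP- cells and did not overlap. The paper reports higher Axin2 in the sorted positive cells, both by microarray and by real-time PCR. It judged significance by two-sided t-tests at 0.05 and describes no adjustment over genes. The unadjusted limma p of Axin2 was 0.0177. Markers of blood cells also separated the sorts. Each of the 12 B lineage markers with a value fell in Axin2+/GFP+ cells, with a median log2 change of -4.73 and a summed linear value of 90.1 to 105 against 1936 to 2637. Of 15 neutrophil markers, 14 rose, with a median of 2.58 and a summed value of 20515 to 22785 against 2871 to 9110. Of 12 suture mesenchyme markers, 11 had positive changes, with a median of 0.47, and Col3a1 alone passed the test. Of 8 osteoblast markers, 5 passed with a rise. Of the remaining lists, 2 of 12 macrophage markers fell and 1 rose, 2 of 11 T and NK cell markers fell, 1 of 9 endothelial markers fell, 1 of 5 erythroid markers fell and 1 rose, and 0 of 8 osteoclast markers passed. The part of these cells in the proteasome values below was not tested, and in bulk RNA fewer cells of a type and less RNA per cell cannot be told apart.

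Proteasome genes were lower in Axin2+/GFP+ cells or did not pass the test, and none was higher. In limma 16 of the 50 genes fell, 0 rose and 34 did not pass. Among all genes 11.4% were called lower and 4.64% higher. Many array genes of similar brightness also moved downward: of the 5204 genes whose mean value lay between the lowest and highest mean of the core and 19S genes (3.66 and 6.52), 31.0% were called lower and 4.04% higher. At an unadjusted p under 0.05, 25 members were lower and 0 higher, against 17.6% and 16.3% of all genes and 44.2% and 8.99% of the genes of like signal. The methods' t-test called 3 members lower and 0 higher after adjustment, against 2.60% and 1.06% of all genes and 7.74% and 0.576% of the genes of like signal. Those 3 were Psma1, Psmc3 and Psme4, and every other limma call of a member was lost under that test. For the 50 members as a whole, the shares called lower were near those of genes of like signal. That range was set by the core and 19S genes, and some other members lay outside it. Of the 31 constitutive subunits of the 20S core and the 19S particle, 13 fell, beside the 31.0% of genes of like signal. At an unadjusted limma p under 0.05, 20 of the 31 were lower, beside 44.2%. The methods' t-test called 2 of them lower, beside 7.74%. The median log2 change of the 31 was -0.82, against -0.46 for the genes of like signal and 0.14 for all genes. The Axin2+/GFP+ and Axin2-/GFP- samples did not overlap for 26 of the 50 genes, 25 of them lower and 1 (Psma8) higher. Groups that did not overlap were found for 40.9% of all genes and 53.0% of the genes of like signal, the second a share like that of the members. Under quantile normalization and cyclic loess 4 and 3 of the 31 core and 19S genes were called lower, against 14.6% and 16.5% of the genes of like signal, so that the share of called subunits was then near that background. Without Axin2-/GFP- replicate 1, 2 or 3 the number of proteasome genes called lower was 8, 8 and 10.

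**Figure D1:**
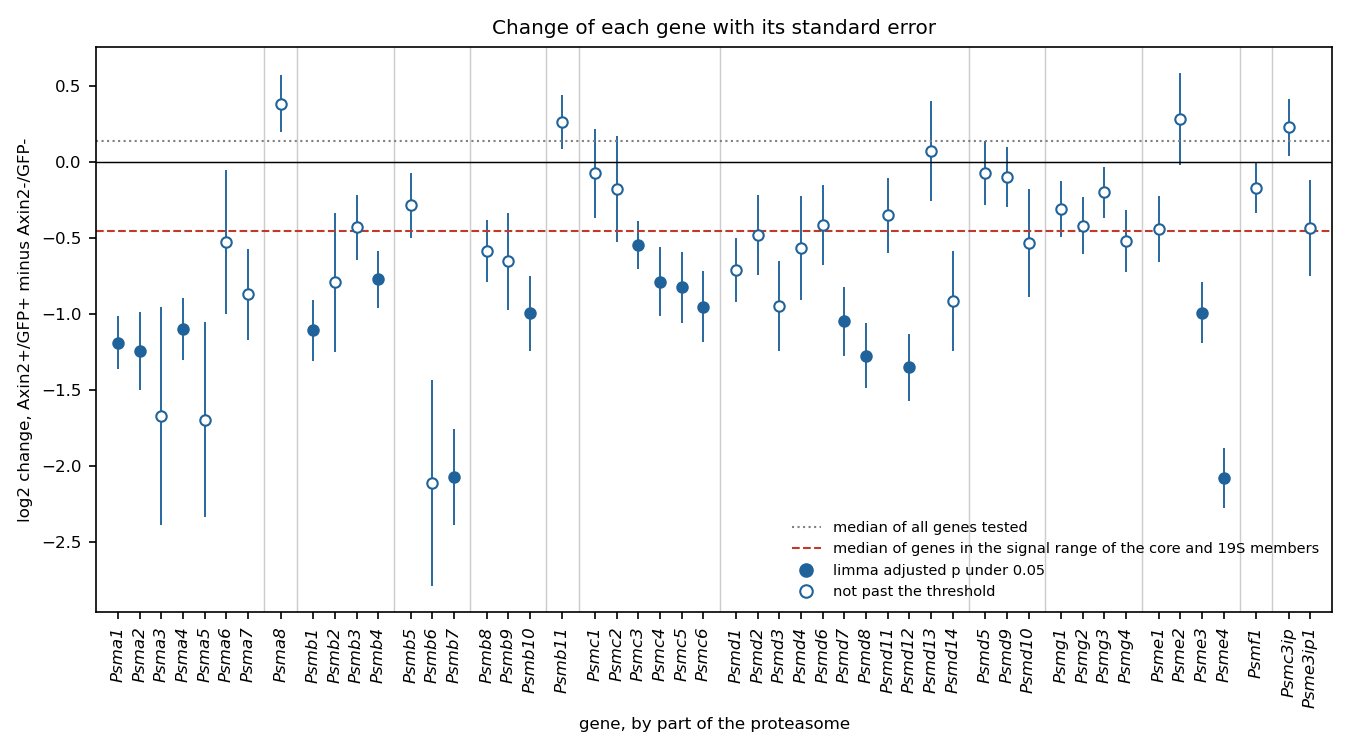
The log2 change of each of the 50 genes (Axin2+/GFP+ minus Axin2-/GFP-, vertical axis) is plotted by part of the proteasome, with bars of 1 standard error and filled points for an adjusted p under 0.05; the dotted line marks the median of all genes (0.14) and the dashed line that of genes in the signal range of the core and 19S members (-0.46). The 16 filled points all lie below 0, from -0.54 for Psmc3 to -2.08 for Psme4.

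The alpha ring, which forms the gate of the 20S core, had a median log2 change of -1.19. Of its 7 genes, Psma1, Psma2 and Psma4 fell and the other 4 had negative changes that did not pass. Of the genes of like signal 31.0% were called lower, with a median change of -0.46. Psma1 read 3.87, 3.81 and 3.89 on the Axin2+/GFP+ arrays and 4.93, 4.91 and 5.30 on the Axin2-/GFP- arrays. Every positive sample lay more than a log2 unit below the lowest negative one, and the positive samples were nearly equal, with an SD of 0.04. The log2 change was -1.19 (standard error 0.18), or 2.28-fold lower, at an adjusted p of 0.00337. Psma4 read 4.56, 4.03 and 4.04 against 5.17, 5.27 and 5.48, a change of -1.10 (adjusted p = 0.00872). Psma2 read 3.50, 4.46 and 3.87 against 5.36, 5.24 and 4.96, a change of -1.24 (adjusted p = 0.0139). For both genes the populations stood apart, by the smaller gap for Psma2, whose highest positive sample was replicate 2. The Psma2 call was lost without Axin2-/GFP- replicate 1 (adjusted p = 0.0602) or replicate 2 (0.0539). Psma2 and Psma4 also lost their calls under quantile normalization and cyclic loess, at adjusted p-values of 0.0549 to 0.0895.

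The larger fitted changes of the alpha ring belonged to genes that a single array set apart. Psma5 read 4.85, 2.23 and 5.07 in Axin2+/GFP+ cells and 5.97, 5.50 and 5.76 in Axin2-/GFP- cells. Psma3 read 5.20, 2.90 and 6.43 against 6.55, 6.48 and 6.51. In both, Axin2+/GFP+ replicate 2 lay more than 2 log2 units below the other positive samples, although the populations did not overlap. The log2 changes were -1.70 (adjusted p = 0.105) for Psma5 and -1.67 (adjusted p = 0.140) for Psma3. The low value of replicate 2 was present on every feature of these genes: 3.31, 2.92 and 2.90 on the 3 features of Psma3, and 2.23 and 3.35 on the pair of Psma5 features. The other feature of Psma5 gave a smaller change, -0.80. Whether some of these features read processed copies of the genes was not tested. Without Axin2+/GFP+ replicate 2 the change was -0.78 for Psma5 (adjusted p = 0.0485) and -0.70 for Psma3 (adjusted p = 0.199), and without replicate 3 it was -2.47 for Psma3 (adjusted p = 0.0276) and -2.20 for Psma5 (adjusted p = 0.0608). Psma6, the smallest change of the ring, read 4.88, 7.15 and 6.21 against 6.71, 6.53 and 6.57. Here replicate 2 was the highest of all 6 samples, and the change of -0.53 (adjusted p = 0.442) turned to 0.05 under cyclic loess. Psma7 had a change of -0.87 (adjusted p = 0.0811), with populations apart. The testis-specific alpha subunit Psma8 read 2.0, 2.26 and 1.83 against 1.44, 1.75 and 1.75. It was the only member at or below the upper quartile of 1190 olfactory and vomeronasal receptor genes in both populations, and its change of 0.38 did not pass (adjusted p = 0.187).

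**Figure D2:**
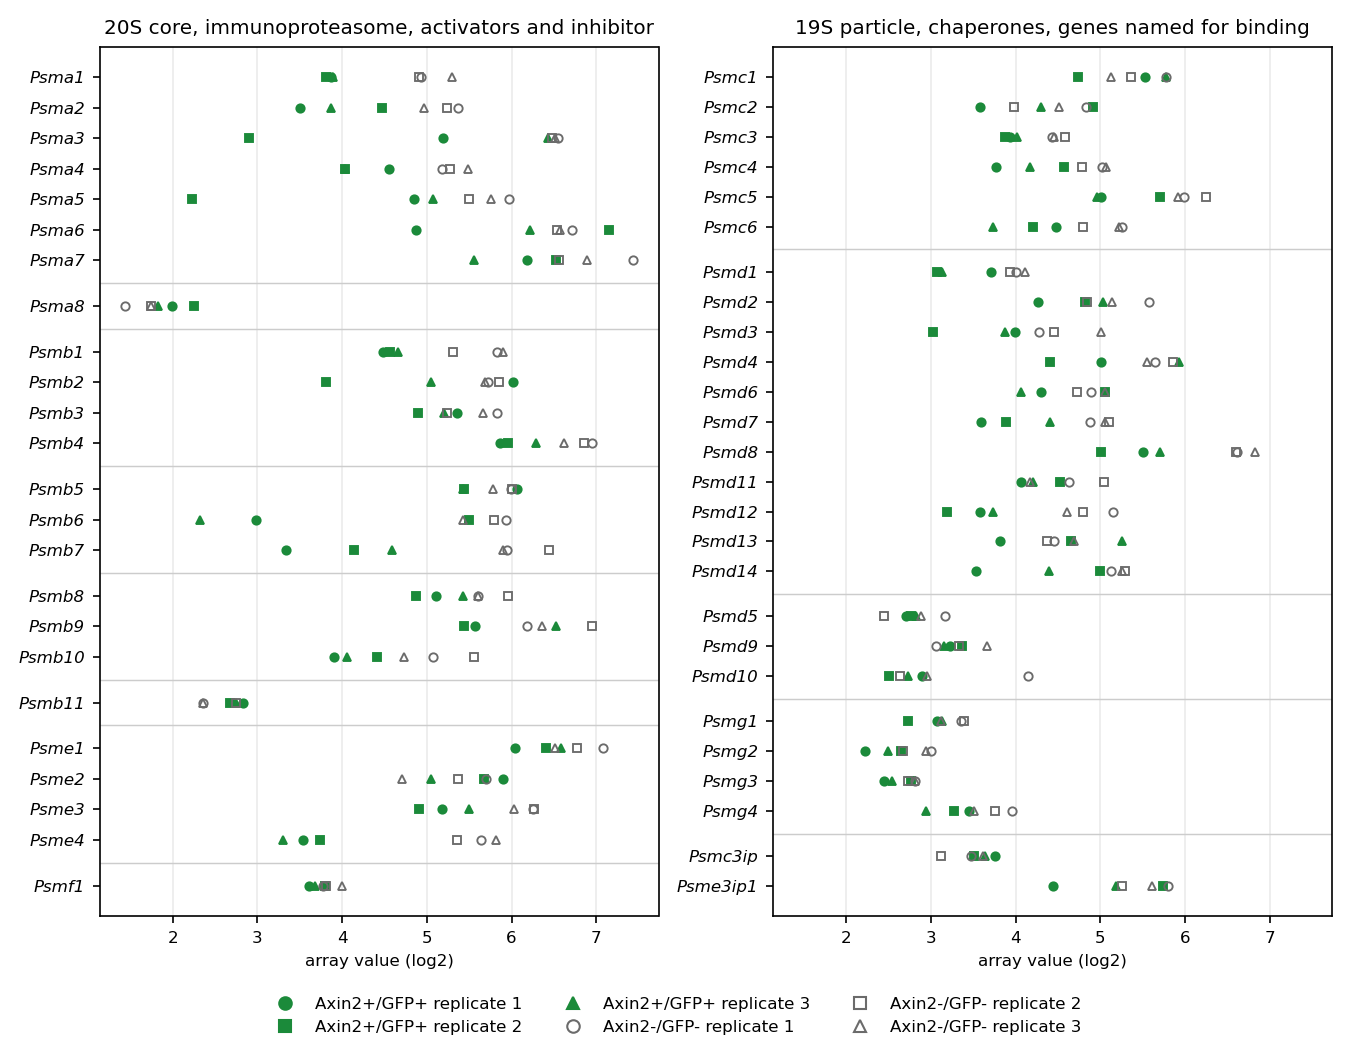
Log2 array values (horizontal axis) of the 50 genes in each sample are shown by gene, with filled green symbols for the 3 Axin2+/GFP+ samples and open grey symbols for the 3 Axin2-/GFP- samples; rules divide the parts of the proteasome. The low squares of Psma3 (2.90) and Psma5 (2.23) are Axin2+/GFP+ replicate 2, and in Psmb6 that sample (5.50) lies with the Axin2-/GFP- samples.

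Among the beta subunits without an active site, Psmb1 and Psmb4 fell, and Psmb2 and Psmb3 did not pass. Psmb1 read 4.48, 4.57 and 4.66 in Axin2+/GFP+ cells and 5.83, 5.30 and 5.90 in Axin2-/GFP- cells. Its positive samples lay close together and well below the negative ones, and the change was -1.11 (standard error 0.20, adjusted p = 0.00822). The call was lost under quantile normalization (-0.65, adjusted p = 0.0759) and cyclic loess (-0.67, adjusted p = 0.0590). Psmb4 had a change of -0.77 (adjusted p = 0.0270), and its call was lost under 11 of the 17 alternatives. It was lost without any of 5 arrays, all but Axin2+/GFP+ replicate 3, at adjusted p-values of 0.0522 to 0.1. Under quantile normalization the change was -0.34 (adjusted p = 0.299) and under cyclic loess -0.19 (adjusted p = 0.590). Psmb3, the smallest change of the set, read 5.35, 4.89 and 5.20 against 5.83, 5.23 and 5.67. Its populations overlapped, and the change of -0.43 (adjusted p = 0.193) was 0.05 under quantile normalization and 0.03 under cyclic loess. In Psmb2 the Axin2+/GFP+ samples spread from 3.81 to 6.01, and the change was -0.79 (adjusted p = 0.249). It rested on single arrays in both directions, at -1.32 (adjusted p = 0.0409) without Axin2+/GFP+ replicate 1 and -0.22 (adjusted p = 0.622) without replicate 2.

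The 3 active-site subunits behaved unequally. Psmb7, which carries the trypsin-like activity at the β2 position, fell 4.21-fold. It read 3.34, 4.14 and 4.59 in Axin2+/GFP+ cells and 5.95, 6.44 and 5.90 in Axin2-/GFP- cells. No positive sample came within a log2 unit of a negative one, and the change was -2.07 (standard error 0.31, adjusted p = 0.00370). Of the 17 alternatives, the methods' t-test alone ended this call (adjusted p = 0.0791). Psmb6, the caspase-like subunit at β1, read 2.99, 5.50 and 2.32 against 5.93, 5.79 and 5.42. Replicates 1 and 3 were low and replicate 2 lay within the range of the negative samples, so that the change of -2.11 (standard error 0.68) did not pass (adjusted p = 0.0672). Without Axin2+/GFP+ replicate 2 it was -3.06 (adjusted p = 0.000881), and without replicate 3 it was -1.47 (adjusted p = 0.152). Psmb5, the chymotrypsin-like subunit at β5, read 6.06, 5.44 and 5.43 against 5.99, 6.00 and 5.79. The populations overlapped, and the change of -0.28 (adjusted p = 0.363) was 0.17 under quantile normalization and 0.22 under cyclic loess.

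The immunoproteasome subunits all had negative changes, with a median of -0.65, and 1 of the 3 passed. Genes of like signal had a median of -0.46, and 31.0% were called lower. Psmb10, the inducible subunit of the β2 position, read 3.90, 4.41 and 4.06 in Axin2+/GFP+ cells and 5.07, 5.56 and 4.74 in Axin2-/GFP- cells. All positive samples were below all negative ones, and the change of -1.0 (standard error 0.24) was 2.0-fold (adjusted p = 0.0275). This call was lost without Axin2+/GFP+ replicate 1 (adjusted p = 0.0664) or 3 (0.0617), without Axin2-/GFP- replicate 1 (0.0796) or 2 (0.0894), and under quantile normalization (-0.60, adjusted p = 0.188) and cyclic loess (-0.62, adjusted p = 0.148). Psmb8, the inducible β5 subunit, read 5.11, 4.87 and 5.43 against 5.60, 5.96 and 5.61. Its populations were apart by a narrow gap, and the change was -0.59 (adjusted p = 0.0831). Psmb9, the inducible β1 subunit, read 5.57, 5.43 and 6.53 against 6.18, 6.95 and 6.36. Axin2+/GFP+ replicate 3 lay among the negative samples. The change was -0.65 (adjusted p = 0.185), and it was -0.99 (adjusted p = 0.0416) without that sample and -0.43 (adjusted p = 0.426) without Axin2-/GFP- replicate 2. In the same samples the B lineage markers were lower and the neutrophil markers higher, as given above. The part of either cell type in these values was not tested. The thymus-specific subunit Psmb11 read 2.83, 2.68 and 2.75 against 2.36, 2.75 and 2.36, a change of 0.26 (adjusted p = 0.314) that was -0.05 with the arrays centred on receptor genes.

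Whether an inducible subunit and the constitutive subunit it replaces changed unequally was asked within each array. The difference of log2 values, inducible minus constitutive, was compared between populations with an exact two-sided permutation test, for which 0.1 is the smallest possible p. For Psmb10 minus Psmb7 it was 0.56, 0.27 and -0.54 in Axin2+/GFP+ cells and -0.88, -0.89 and -1.16 in Axin2-/GFP- cells. The populations did not overlap, and the difference of changes was 1.08 (exact permutation p = 0.1, adjusted over the 3 pairs 0.3). For Psmb9 minus Psmb6 the difference of changes was 1.46, with Axin2+/GFP+ samples from -0.06 to 4.21 (exact permutation p = 0.4), and for Psmb8 minus Psmb5 it was -0.30 (exact permutation p = 0.4). In these pairs the populations overlapped, and single arrays moved the values. Psmb9 minus Psmb6 was 2.61 without Axin2+/GFP+ replicate 2 and 0.48 without replicate 3, and Psmb8 minus Psmb5 was -0.08 without replicate 1 and -0.56 without replicate 3.

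**Figure D3:**
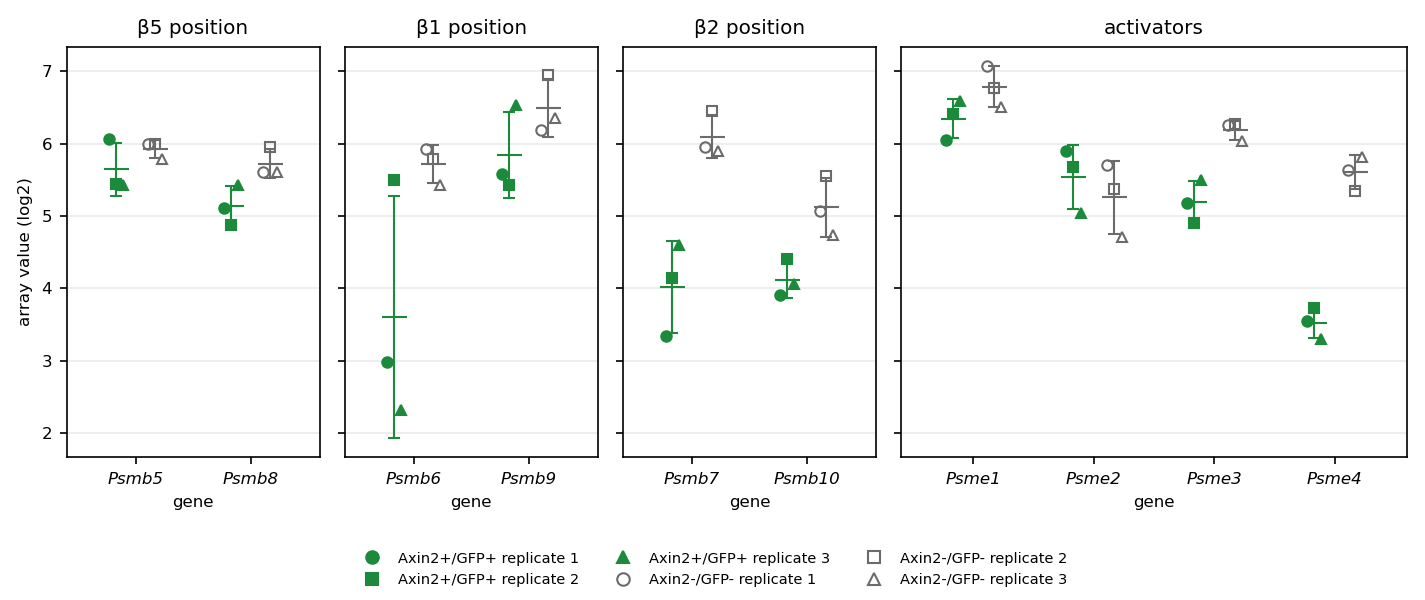
Log2 array values (vertical axis) of the active-site subunits, each beside the inducible subunit of its position, and of the 4 activators are shown for 3 Axin2+/GFP+ samples (filled green) and 3 Axin2-/GFP- samples (open grey), with horizontal lines for the mean and bars for the SD; levels of different genes come from different probes and are not comparable. Psmb7, Psmb10, Psme3 and Psme4 have no overlap between populations, while Psme2 has means of 5.54 and 5.26 with overlapping samples.

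In the 19S particle 7 of 17 genes fell, beside 31.0% of the genes of like signal. The median change of the 17 was -0.71, beside -0.46. The ATPase ring, which unfolds substrates and opens the gate, gave 4 of the 7 calls: Psmc3, Psmc4, Psmc5 and Psmc6. Psmc6 had the largest change of the ring, with 4.47, 4.20 and 3.73 in Axin2+/GFP+ cells and 5.25, 4.79 and 5.23 in Axin2-/GFP- cells. The populations were apart, and the change was -0.95 (standard error 0.23, adjusted p = 0.0279). The other 3 had changes of -0.82 (Psmc5, adjusted p = 0.0456), -0.79 (Psmc4, adjusted p = 0.0477) and -0.54 (Psmc3, adjusted p = 0.0494), close to the threshold. All 4 calls were lost under quantile normalization and cyclic loess, and each was lost when some single arrays were left out: any of the 6 for Psmc3 (adjusted p = 0.0681 to 0.15), any but Axin2+/GFP+ replicate 2 for Psmc4 (0.0872 to 0.141) and Psmc5 (0.0963 to 0.142), and Axin2+/GFP+ replicate 2 or 3 or Axin2-/GFP- replicate 1 or 3 for Psmc6 (0.0529 to 0.102). Psmc1, the smallest change of the ring, read 5.53, 4.73 and 5.78 against 5.77, 5.36 and 5.13. The populations overlapped, the change was -0.07 (adjusted p = 0.866), and the value was 0.41 under quantile normalization and 0.39 under cyclic loess. Its other feature gave -0.48. Psmc2 had a change of -0.18 (adjusted p = 0.725) and was 0.17 under quantile normalization.

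Of the 11 non-ATPase subunits of the 19S particle, Psmd7, Psmd8 and Psmd12 fell, all of them structural subunits of the lid. Psmd12 read 3.57, 3.19 and 3.74 in Axin2+/GFP+ cells and 5.15, 4.80 and 4.60 in Axin2-/GFP- cells. The lowest negative sample was above the highest positive one, and the change was -1.35 (standard error 0.22), or 2.55-fold lower (adjusted p = 0.00487). Psmd8 read 5.50, 5.01 and 5.71 against 6.61, 6.60 and 6.83, a change of -1.28 (standard error 0.21, adjusted p = 0.00553). Psmd7, which pairs with the deubiquitinase of the lid, read 3.60, 3.89 and 4.41 against 4.88, 5.10 and 5.06, a change of -1.05 (adjusted p = 0.0168). The negative samples of Psmd7 and Psmd8 were tight, and the populations stood apart in both genes. The call of Psmd7 was lost without Axin2-/GFP- replicate 2 (adjusted p = 0.0654) or 3 (0.0615), under quantile normalization (-0.67) and under cyclic loess (-0.70). For Psmd8 it was lost under cyclic loess (-0.74, adjusted p = 0.0611) and the methods' t-test (adjusted p = 0.0669). The call of Psmd12 was lost under the methods' t-test alone (adjusted p = 0.0662). Psmd14, the deubiquitinase itself, had a change of -0.92 (adjusted p = 0.0901), which was -1.26 (adjusted p = 0.0233) without Axin2+/GFP+ replicate 2 and -0.53 (adjusted p = 0.143) without replicate 1. Psmd4, a ubiquitin receptor, had -0.57 (adjusted p = 0.268), with -0.97 (adjusted p = 0.0328) without Axin2+/GFP+ replicate 3 and -0.21 (adjusted p = 0.636) without replicate 2. The scaffold of the base, Psmd1 and Psmd2, had changes of -0.71 (adjusted p = 0.0509) and -0.48 (adjusted p = 0.225), and both features of Psmd2 were lower, at -0.48 and -0.56. For Psmd1 the change was -0.92 (adjusted p = 0.0150) without Axin2+/GFP+ replicate 1 and -0.60 (adjusted p = 0.119) without replicate 2. Psmd3 had -0.95 (adjusted p = 0.0630), Psmd6 -0.42 and Psmd11 -0.35. Psmd13 read 3.81, 4.66 and 5.25 against 4.45, 4.37 and 4.69. Its Axin2+/GFP+ samples lay on both sides of the others, and the change of 0.07 (adjusted p = 0.887) was -0.04 with median centring and -0.25 with the arrays centred on receptor genes.

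Of the 4 activators, the nuclear activators PA200 (Psme4) and PA28 gamma (Psme3) fell, and the PA28 alpha and beta pair, which interferon-gamma induces, did not pass. Psme4 had the smallest p of all 50 genes. It read 3.54, 3.73 and 3.30 in Axin2+/GFP+ cells and 5.64, 5.35 and 5.82 in Axin2-/GFP- cells. Every positive sample lay more than 1.5 log2 units below every negative one, and the change was -2.08 (standard error 0.20), or 4.22-fold lower (adjusted p = 0.000489). The call was kept under all 17 alternatives, with log2 changes of -1.71 to -2.40. Psme3 read 5.18, 4.90 and 5.50 against 6.26, 6.27 and 6.03. The populations were apart, with a change of -0.99 (standard error 0.20, adjusted p = 0.0123), which was lost without Axin2-/GFP- replicate 1 (adjusted p = 0.0525) or 2 (0.0523), under quantile normalization (-0.52, adjusted p = 0.145) and under cyclic loess (-0.49, adjusted p = 0.156). Psme1 read 6.04, 6.41 and 6.58 against 7.08, 6.77 and 6.51. Psme2 read 5.90, 5.68 and 5.05 against 5.70, 5.37 and 4.70. In both genes the populations overlapped. The change of Psme1 was -0.44 (adjusted p = 0.190) and was 0.16 under cyclic loess, and the change of Psme2 was 0.28 (adjusted p = 0.517) and was -0.04 with the arrays centred on receptor genes. As a description, with pairs formed after these values had been seen, the change of Psme4 minus that of Psme1 was -1.64 and minus that of Psme2 -2.36, and for Psme3 these differences were -0.55 and -1.28. The inhibitor PI31, encoded by Psmf1, read 3.60, 3.80 and 3.68 against 3.78, 3.81 and 3.99, a change of -0.17 (adjusted p = 0.472) that was 0.05 under quantile normalization.

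No assembly chaperone passed the test. The 3 chaperones of the 19S base had a median change of -0.10 and the 4 chaperones of the 20S core a median of -0.37, all 7 with negative values, and 1 (Psmg4) had an unadjusted p under 0.05. Psmd10, the oncoprotein gankyrin, read 2.90, 2.51 and 2.74 in Axin2+/GFP+ cells and 4.15, 2.63 and 2.96 in Axin2-/GFP- cells. A single negative sample, replicate 1, was high, and the change was -0.53 (adjusted p = 0.309). Psmd5 read 2.70, 2.77 and 2.83 against 3.17, 2.45 and 2.89, a change of -0.07 (adjusted p = 0.825) that was 0.10 without Axin2-/GFP- replicate 1. Psmg4 read 3.45, 3.27 and 2.94 against 3.96, 3.76 and 3.50, with populations narrowly apart and a change of -0.52 (adjusted p = 0.115). Psmg3 read 2.45, 2.77 and 2.54 against 2.81, 2.73 and 2.81, overlapping, with -0.20 (adjusted p = 0.408). The remaining chaperones were Psmd9 (-0.10), Psmg1 (-0.31) and Psmg2 (-0.42). Most of these genes lay in the lowest range of signal, where few array genes were called. The genes named for binding a subunit did not pass either. Psme3ip1 read 4.44, 5.74 and 5.18 against 5.80, 5.25 and 5.61, a change of -0.44 that was 0.04 under quantile normalization, and Psmc3ip, a recombination factor, read 3.75, 3.51 and 3.63 against 3.47, 3.12 and 3.62, a change of 0.23 that was -0.09 with the arrays centred on receptor genes. Their samples overlapped.

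The position of the 48 proteasome genes, the members counted here, in the range of signal was given beside their changes. Brighter genes were lower in Axin2+/GFP+ cells as a whole. Between mean log2 values of 4 and 5, 10 of 19 members were called lower against 33.1% of 2523 genes, and the median change of the members was -0.95 against -0.51. From 5 to 6, 4 of 12 members were called against 37.4% of genes, with medians of -0.69 and -0.58. From 6 to 7, 2 of 6 were called against 32.2%, with medians of -0.71 and -0.56. Below 4, 0 of 11 members were called, against 13.8% of genes from 3 to 4 and 1.51% under 3. The medians of members and of all genes were -0.31 and -0.04 from 3 to 4, and -0.13 and 0.25 under 3. The median of the members thus lay below that of all genes in each range that held members. Single members lay above the median of their range, among them Psme2, Psmc1 and Psma8. Above 5 the share called was near that of the other genes.

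**Figure D4:**
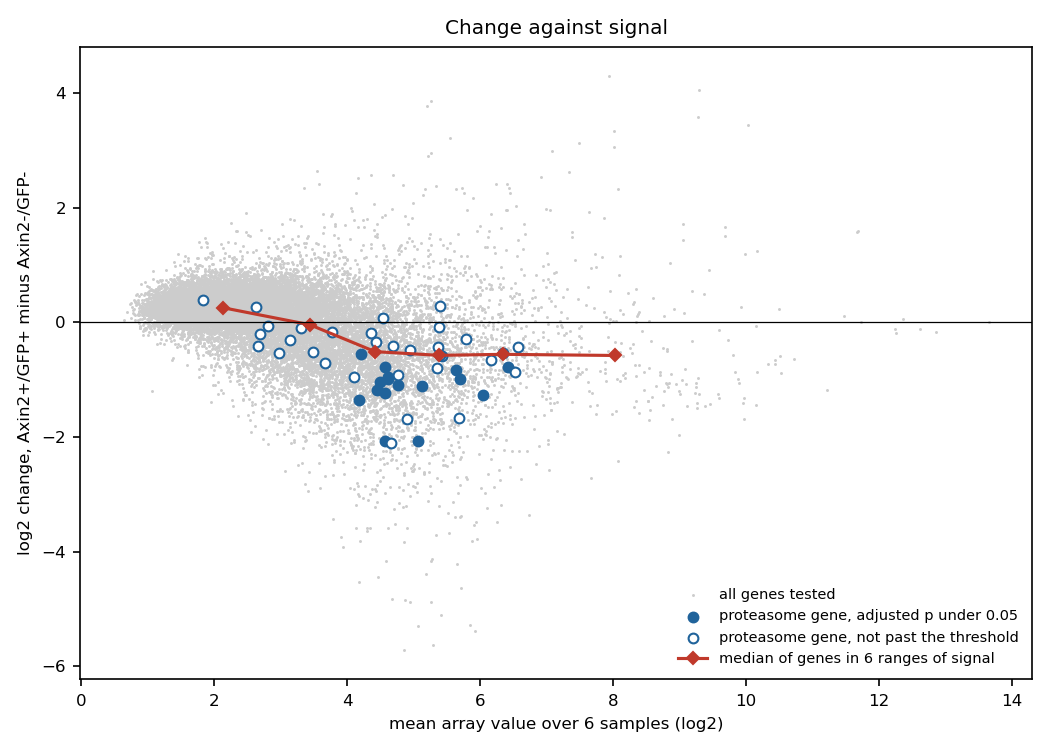
The log2 change of each gene (Axin2+/GFP+ minus Axin2-/GFP-, vertical axis) is plotted against its mean log2 array value over the 6 samples (horizontal axis). All genes are in grey and the 48 proteasome genes in blue, filled where the adjusted p was under 0.05. A red line joins the medians of 6 ranges of signal. The red line runs from 0.25 in the dimmest range to -0.58 in the brightest, and most filled points lie between mean values of 4 and 5.

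The Axin2+/GFP+ samples varied more among themselves than the Axin2-/GFP- samples. Over the 31 core and 19S genes the median SD was 0.419 in Axin2+/GFP+ cells and 0.171 in Axin2-/GFP- cells, and it was the larger in Axin2+/GFP+ cells for 26 of 31. An SD above 0.5 was found for 13 of these genes in Axin2+/GFP+ cells and for 0 in Axin2-/GFP- cells. Genes of like signal shared part of this pattern: their median SDs were 0.341 and 0.225, and 26.3% and 8.13% exceeded 0.5. The median over the core and 19S genes was 4.30, 4.57 and 4.59 in Axin2+/GFP+ replicates 1, 2 and 3 and 5.58, 5.27 and 5.30 in the Axin2-/GFP- replicates, and 12, 13 and 6 of the 31 genes had their lowest positive value in replicates 1, 2 and 3. A value more than 1 log2 unit below the median of its population was found for 1 of these genes in Axin2+/GFP+ replicate 1 (Psma6), for 3 in replicate 2 (Psma3, Psma5 and Psmb2) and for 0 on each of the other arrays. With 3 samples in each population no test of the spread was made.

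**Figure D5:**
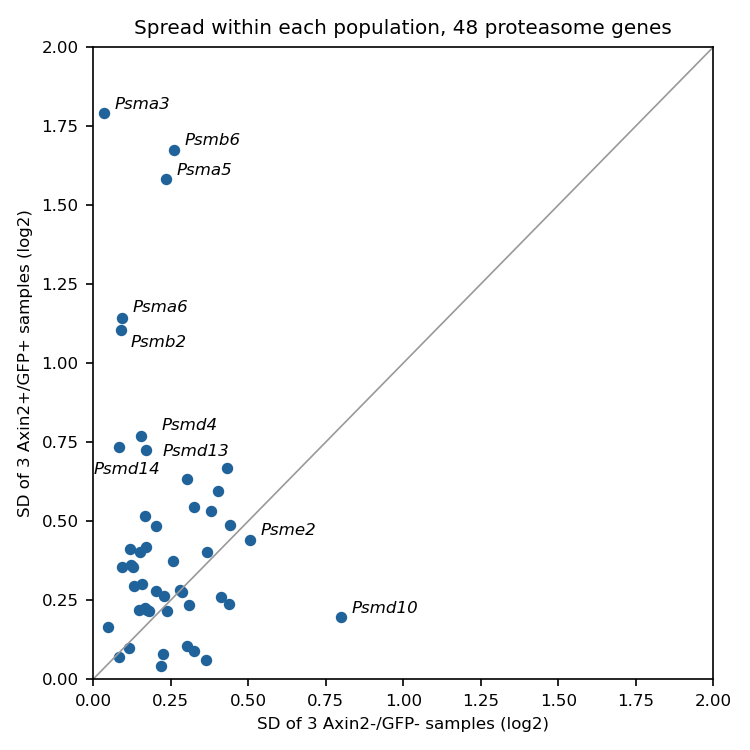
The SD of 3 Axin2+/GFP+ samples (vertical axis, log2) is plotted against the SD of 3 Axin2-/GFP- samples (horizontal axis, log2) for the 48 proteasome genes, with a line of equality. Psma3, Psmb6 and Psma5 lie above 1.5 on the vertical axis and below 0.3 on the horizontal axis, and Psmd10 is the gene farthest below the line.

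Genes that work with the proteasome were read from lists. Of 13 measured partners and adaptors (17 listed), 6 fell and 0 rose, with a median of -0.77, beside 31.0% and -0.46 for the genes in the signal range of the core and 19S members. Sem1 and Ubqln4 lay outside that range. Ubqln1, a ubiquilin that carries ubiquitinated proteins to the 19S particle, had the smallest p, with a change of -1.48 (adjusted p = 0.00420). Ecpas, which tethers the core to the cap, fell by 1.43, Vcp, the segregase that extracts substrates, fell by 1.36, and Zfand5, a proteasome-binding protein, fell by 1.40 on the log2 scale. The other calls were Pomp, the maturation factor of the 20S core (-0.90), and the shuttle Rad23b (-0.98). Sem1, the smallest subunit of the lid and one whose symbol falls outside the rule, had a change of 0.54 (adjusted p = 0.0909). Its samples read 8.11, 8.28 and 8.29 in Axin2+/GFP+ cells and 8.01, 7.58 and 7.46 in Axin2-/GFP- cells and did not overlap. Of the 6 genes of ubiquitin supply, Uba6, a ubiquitin-activating enzyme, was measured by a feature of its own and fell by 1.29 on the log2 scale. Among 4 measured regulators of proteasome genes, Ngly1, a glycanase that acts on NRF1, fell by 1.08 (adjusted p = 0.0217). Among all genes 11.4% were called lower, and 13.8% of those with a mean value from 3 to 4, where Uba6 and Ngly1 lay. Nfe2l1 had -0.19 (adjusted p = 0.422), Nfe2l2, which encodes NRF2, had -1.10 (adjusted p = 0.0662), and Keap1, its inhibitor, had -0.15 (adjusted p = 0.575).

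The genes around the immunoproteasome were read in the same way. Of 8 measured genes of peptide loading, 2 fell and 0 rose, with a median of -0.36, beside 31.0% called lower and a median of -0.46 for the genes in the signal range of the core and 19S members. Most of the list lay outside that range, B2m and Calr above it and Erap1, Tapbpl and Tap2 below it. B2m, the light chain of MHC class I, read 8.88, 8.42 and 8.24 in Axin2+/GFP+ cells and 10.03, 10.06 and 9.92 in Axin2-/GFP- cells. It fell by 1.49 on the log2 scale (adjusted p = 0.00221), and Tap1, the peptide transporter, fell by 1.0 (adjusted p = 0.0344). Tapbpl had -0.90 (adjusted p = 0.0849) and Pdia3 -0.39 (adjusted p = 0.215). Among 13 measured genes of interferon signalling, 6 fell and 0 rose, with a median of -0.99, beside the same 31.0% and -0.46. Irf8 (-2.05) and Irf2 (-1.76) encode transcription factors, Ifnar1 (-1.55) and Ifngr2 (-1.36) receptor chains, and Jak1 (-0.99) and Stat2 (-0.85) carry the signal. Irf8 is also a gene of B lineage and myeloid cells. Irf1, which interferon-gamma induces, had -1.07 (adjusted p = 0.149), and Nlrc5, the activator of MHC class I genes, had 0.07 (adjusted p = 0.807).

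The promoter windows were searched on both strands for 6 motifs, as a description. The antioxidant response element core TGACNNNGC was in 6 of 43 windows of proteasome genes (14%), against 12.4% of all 32851 windows. It lay in those of Psmb5, Psmb6, Psmc6, Psmd9, Psmd12 and Psme4, of which Psmc6, Psmd12 and Psme4 fell and the other 3 did not pass. The interferon-gamma activated site TTCNNNGAA was in 3 windows (6.98%, against 8.30%), those of Psmb8, Psmd2 and Psmg1, and the interferon response element core GAAANNGAA in 7 (16.3%, against 8.56%). The CCAAT box was in 14 windows (32.6%, against 37.4%) and the GC box GGGCGG in 24 (55.8%, against 35.7%). The ETS core CCGGAAG was in 15 windows (34.9%, against 8.86%). Of the windows of called genes 4 of 12 held the ETS core, and of the others 11 of 31. Different motifs overlapped in the windows of Psmd9 and Psme4. A match shows only that the letters are in the window.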

How the data were processed

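Total RNA of 3 Axin2+/GFP+ and 3 Axin2-/GFP- samples was labelled for Affymetrix whole-transcript arrays. The authors deposited log2 values per array feature, made with RMA in R 3.2.1 per the submitters' processing notes; for the background step, probe set level and genome build the sources used here give nothing. These columns entered unchanged, with 0 unmatched to a sample. RMA summarises the probes of a feature and usually makes the arrays alike in distribution, which these are not.

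Of 35557 features, 21789 carry 1 gene symbol in the platform's table, 1621 carry several and 12147 are unnamed here; 21698 of those with 1 symbol matched a RefSeq gene by identifier. A gene with several features (999 genes) was read by the one with the highest mean. For the 19938 genes, lmFit and eBayes of limma 3.58.1 (R 4.3.3) were used with Benjamini-Hochberg adjustment and a threshold of 0.05, after a run on simulated data. The p-values reflect the spread among these samples only. Values in every sample are given for the members of each part with the largest and smallest change, for Psmb5 to Psmb10 and Psme1 to Psme4, and for the 10 smallest p-values among members whose populations do not overlap. Of the other lists up to 4 genes with the smallest p are named under this rule, and further genes (among them Pomp, Rad23b, Sem1, Jak1, Stat2, Irf1 and Nlrc5) were named after their values were seen. The members and lists were chosen with earlier results of these data known.

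The alternatives were eBayes with a trend, the methods' two-sided t-test, median centring, quantile normalization, cyclic loess, the replicate number as a block, centring on 1190 olfactory and vomeronasal receptor genes, leaving out features with a mean under 3, the mean of a gene's features, fitting every feature and leaving out each sample; array weights were added after the values were seen. Within the 3 pairs of an inducible and a constitutive subunit, differences of log2 values were compared by exact permutation; 4 activator pairs, formed after the values were seen, are described without a test. Promoter windows come from RefSeq (GRCm38.p6), and a gene may have several.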

Additional observations from a re-analysis of the deposited data

How the results depend on the processing

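Of the values of single genes under the 17 alternatives, 699 kept their direction and side of the threshold, 86 lost a call, 30 gained one and 29 changed sign. All genes called fell from 3191 to 729 with the methods' t-test, 2034 with quantile normalization and 1642 to 2871 when 1 sample was left out. Proteasome members called lower were 16, and 3 with the t-test, 5 with quantile normalization, 4 with cyclic loess, 10 with every feature fitted, 27 centred on receptor genes, and 8 to 16 when 1 sample was left out; under each alternative 0 were called higher. The median of all genes was 0.14, and 0.03 with median centring, 0.06 with quantile normalization, 0.01 with cyclic loess and -0.18 centred on receptor genes, so that lower and higher calls over all genes were 2265 and 926 as deposited, 2719 and 459 with median centring, 1266 and 768 with quantile normalization, 1468 and 785 with cyclic loess, and 3980 and 210 centred on receptor genes. With every feature fitted they were 1467 and 335. The median change of core and 19S members was -0.45 with quantile normalization, -0.42 with cyclic loess and -1.14 centred on receptor genes, where genes of like signal had -0.10, -0.12 and -0.78. The median change of immunoproteasome members was -0.21, -0.12 and -0.97 in the same order, and -0.96 to -0.46 when 1 sample was left out (-0.96 without Axin2+/GFP+ replicate 3). Uncalled changes that turned sign were, with quantile normalization, Psmb3 0.046, Psmb5 0.17, Psmc1 0.41, Psmc2 0.17, Psmd11 0.031, Psmd6 0.0079, Psme3ip1 0.042 and Psmf1 0.046; with cyclic loess, Psma6 0.047, Psmb3 0.029, Psmb5 0.22, Psmc1 0.39, Psmc2 0.15, Psme1 0.16, Psme3ip1 0.021 and Psmf1 0.013; centred on receptor genes, Psmb11 -0.054, Psmc3ip -0.090, Psmd13 -0.25 and Psme2 -0.035; and with median centring, Psmd13 -0.038. When 1 sample was left out, Psma6 ranged from -1.06 to 0.075, Psmc1 from -0.29 to 0.23, Psmc2 from -0.50 to 0.16, Psmd13 from -0.27 to 0.45, Psmd5 from -0.26 to 0.10 and Psmd9 from -0.24 to 0.056. The cause was not tested. The deviations of same-numbered samples from their population means, over all genes, had correlations of 0.031, 0.011 and 0.053. Such correlations cannot show whether these samples came from the same mice, which was not tested. With the replicate block 16 members were lower, 13 of them also called without it. Signal limits what the dimmest members can show.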
